A study of Mus musculus with 4 samples.

Results

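The transcripts examined here encode the enzymes that methylate cytosine in mouse DNA and the proteins that recognise methylated CpG: the methyltransferases Dnmt1, Dnmt3a and Dnmt3b, the catalytically inactive cofactor Dnmt3l, the hemimethyl-CpG binding proteins Uhrf1 and Uhrf2, and the methyl-CpG binding domain proteins Mbd1, Mbd2 and Mbd4. Members were all probes that carry one of these 9 gene names in the scanner files, and each probe was kept apart. This gave 15 probes for the 9 genes, out of 55681 probes with 36163 gene names on the array. Dnmt3b had 3 probes, Uhrf1, Uhrf2, Mbd1 and Mbd2 had 2 each, and Dnmt1, Dnmt3a, Dnmt3l and Mbd4 had 1 each. All 15 were read from 1 spot per array, were well above background on all 4 arrays and passed the level filter in every comparison.

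Total RNA of E14Tg2A cells, an established mouse embryonic stem cell line of strain 129/Ola, was hybridised to single-colour Agilent arrays. The ES array held cells at day 0, grown with LIF and serum. The ELA array held epiblast-like aggregates, made from the same cells by floating culture for 2 days in a chemically defined medium without LIF or serum, a step that takes ground state cells towards the primed state of the post-implantation epiblast. The AZA array held aggregates formed for the same 2 days with 50 nM 5-azacytidine, a cytidine analogue that traps DNA methyltransferases on DNA, and the CHQ array held aggregates formed with 100 µM 5-carboxy-8-hydroxyquinoline, an inhibitor of lysine demethylases. Each group was 1 array with RNA pooled from 3 experiments, so there was no replicate, no test and no p-value. ES and ELA lay on 1 slide and AZA and CHQ on the other, so that the slide and the treatment cannot be told apart wherever a treated array is set against ELA or ES, whereas ES with ELA, and AZA with CHQ, were compared within a slide.

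As background, Dnmt3a and Dnmt3b place methyl groups on unmethylated CpG, and Dnmt3l binds both enzymes and stimulates them without being a methyltransferase itself. Dnmt1 copies the pattern onto the new strand after replication, guided by Uhrf1, which binds the half-methylated CpG and ubiquitinates histone H3. In the embryo, DNA methylation is low in the inner cell mass and is laid down again as the epiblast forms. The arrays measured transcripts, so that neither the enzymes nor DNA methylation itself was measured here, and in such bulk samples fewer cells of a type and less RNA per cell cannot be told apart.

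Levels are normalised log2 intensities. A probe was called higher or lower when its log2 difference between 2 arrays was at least 1 (a fold of 2), its mean level on both was at least 7.5 and the scanner software marked it as well above background on either array. Repeat spots of 432 probes gave an SD of a difference of 0.19 to 0.23 (log2), a spread that covers spotting and reading and no biological variation. The values were also computed in 5 other ways, among them 75th percentile scaling (each array shifted to a common 75th percentile) and E1A spike-in scaling (each array shifted to the control RNA added before labelling). From ES to ELA, 4 member probes were called higher, beside a background of 4.07% of the 25193 probes that could be called, and 2 were called lower, beside 5.63%. With AZA, 2 were higher than in ELA and 5 were lower, beside 14.1% and 12.3% of all probes. With CHQ, 3 were higher than in ELA and 7 were lower, beside 14.2% and 12.8%. Between the treated arrays, 2 were higher with CHQ than with AZA and 0 were lower, beside 5.04% and 4.67%. The 15 probes had a median log2 difference of 0.00 between ELA and ES, beside -0.02 over all probes that could be called. Against ELA their median was -0.39 under AZA, beside -0.10, and -0.71 under CHQ, beside -0.12. For CHQ minus AZA it was -0.16, beside -0.03. For the first 3 of these comparisons, in the same order, the member medians were -0.08, -0.78 and -1.17 with 75th percentile scaling, beside -0.07, -0.22 and -0.28 over all probes, and -0.69, -0.71 and -1.28 with E1A spike-in scaling, beside -0.59, -0.27 and -0.41.

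**Figure D1:**
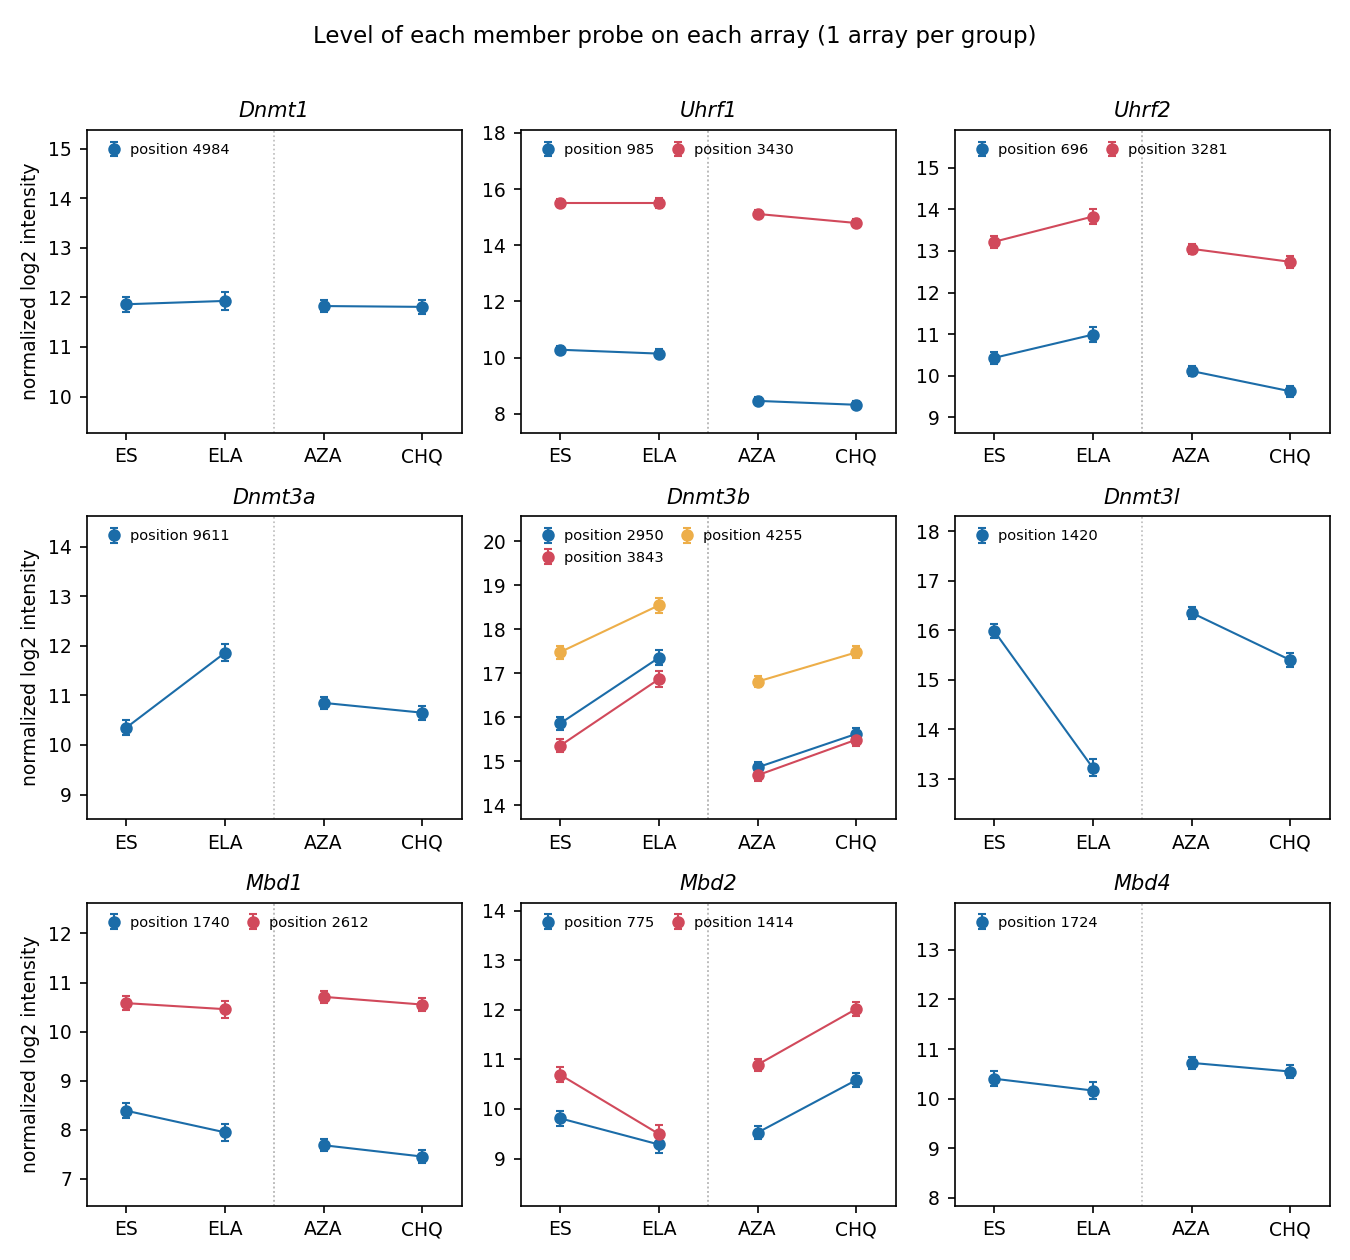
Normalised log2 intensity (vertical axis, its own range in each panel) of each of the 15 member probes on the ES, ELA, AZA and CHQ arrays, with 1 point per array; bars are the SD of repeat spots on that array, lines join arrays of the same slide, and the legend gives the start position listed for the probe on its transcript. Dnmt3a and all 3 Dnmt3b probes peak on the ELA array, where Dnmt3l is lowest, and Dnmt1 lies between 11.81 and 11.93 throughout.

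The probes for Dnmt3a, Dnmt3b and Dnmt3l carry the main contrast among these genes, so the first 30 of the 60 bases of each are given, as listed on the array (mm9 coordinates of the whole probe, plus strand), together with both Uhrf1 probes, which differed from each other.
Dnmt3a, chr12:3914320-3914379: atgttgatgtggaatcttactttcaaatgg
Dnmt3b, position 2950, chr2:153512098-153512157: tgtttgcccccttgaaggaccactttgcct
Dnmt3b, position 3843, chr2:153512991-153513050: tcaggtccccagaaccccctagttcctcat
Dnmt3b, position 4255, chr2:153513403-153513462: gtgcaaagatgacagatgcccagagtttac
Dnmt3l, chr10:77526112-77526171: atgaaagtctttcctagaaccagggcagat
Uhrf1, position 985, chr17:56451668-56452321: agctatacggcaacatcaggctcttgaatg
Uhrf1, position 3430, chr17:56462770-56462829: tgtgtctcatggaaactaaaccatttacta

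The 3 Dnmt3b probes follow each other on the same strand of chromosome 2 and share no bases, so that they are separate readings of that transcript from the same labelled RNA. The upstream Uhrf1 probe spans 654 bases of genome with its 60 bases, which places it across a splice junction. No other probe on the array shared a run of 20 bases with any of the 15 member probes, on either strand. Whether transcripts of near-identical copies, such as the Dnmt3b-ps1 copy annotated by RefSeq, hybridise to the Dnmt3b probes was not tested.

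Of the de novo methyltransferases, Dnmt3b was highest in ELA and lowest under AZA at each of its probes. At position 2950 its level was 15.86 in ES, 17.35 in ELA, 14.86 under AZA and 15.62 under CHQ. At position 3843 it was 15.35, 16.86, 14.68 and 15.49 on the same arrays. At position 4255 it was 17.48, 18.54, 16.81 and 17.47. ES and CHQ lay between ELA and AZA at all 3 probes, and in these values were closer to each other than 2 spot SD. ELA exceeded ES 2.82-fold, 2.85-fold and 2.09-fold, with a mean log2 difference of 1.36 ± 0.25 (SD over the 3 probes, which are not replicates of the condition). With AZA the Dnmt3b level was 5.62-fold, 4.55-fold and 3.32-fold below ELA, and the AZA minus ELA difference at position 2950 (-2.49) was exceeded in that direction by 226 of the 25353 probes that could be called (0.891%). With CHQ the level was 3.32-fold, 2.59-fold and 2.10-fold below ELA, as log2 differences of -1.73, -1.37 and -1.07. These were larger on the other scales, at -2.38, -2.05 and -2.02 with 75th percentile scaling and -2.50, -2.12 and -2.09 with E1A spike-in scaling. AZA minus ELA went in the same way from -2.49, -2.18 and -1.73 to -2.94, -2.66 and -2.44 and to -2.99, -2.64 and -2.41. AZA minus ES was -0.997, -0.67 and -0.67, and CHQ minus ES was -0.24, 0.14 and -0.01. The standing of CHQ against ES depended on the scale: CHQ minus ES was -0.85, -0.53 and -0.83 with 75th percentile scaling and -1.56, -1.16 and -1.49 with E1A spike-in scaling, below ES by more than 2 spot SD at each probe. On these scales AZA minus ES was -1.41, -1.15 and -1.25, and -2.05, -1.69 and -1.81. Within the second slide, Dnmt3b was higher with CHQ than with AZA by 0.76, 0.81 and 0.66, short of the threshold of 1. The differences were 0.56, 0.61 and 0.42 with 75th percentile scaling and 0.49, 0.53 and 0.33 with E1A spike-in scaling, where the last was within 2 spot SD (0.37).

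Dnmt3a, the other de novo enzyme, was measured by 1 probe at the far end of its transcript (position 9611). Its level was 10.35 in ES, 11.86 in ELA, 10.85 under AZA and 10.65 under CHQ. ELA stood above the other arrays, and in the main values the gaps from AZA to CHQ and from CHQ to ES were within 2 spot SD. ELA minus ES was 1.51 (2.85-fold), and 375 of 25193 probes had a larger difference. AZA minus ELA was -1.01 and CHQ minus ELA was -1.21, so that the AZA value sat just past the threshold and went to -0.98, short of it, with 75th percentile scaling. AZA minus ES and CHQ minus ES were 0.50 and 0.30. With E1A spike-in scaling both were negative, at -0.16 and -0.44.

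Dnmt3l, the cofactor of both enzymes, had the reverse profile. Before normalisation its spot read 84261 intensity units in ES, 8929 in ELA, 73158 under AZA and 36441 under CHQ, over a local background of 57, 79, 14 and 13. The normalised levels were 15.98, 13.23, 16.35 and 15.40. ELA was the low array, 6.77-fold below ES, and 112 of 25193 probes had a more negative ELA minus ES difference. That difference was -2.76, and it was -3.03 with 75th percentile scaling and -3.61 with E1A spike-in scaling. AZA was 8.74-fold and CHQ 4.51-fold above ELA, with log2 differences of 3.13 and 2.17. AZA minus ES was 0.37, within 2 spot SD, and CHQ minus ES was -0.59. They were -0.10 and -1.17 with 75th percentile scaling and -0.75 and -1.93 with E1A spike-in scaling. Within the second slide, CHQ minus AZA was -0.95, the opposite sign to Dnmt3b and short of the threshold, and it reached -1.07 with 75th percentile scaling and -1.18 with E1A spike-in scaling. Dnmt3b was called higher and Dnmt3l called lower in ELA than in ES. For CHQ minus AZA the signs were the same, but neither gene was called in the main values. The opposition of Dnmt3l to Dnmt3a and Dnmt3b was known when the members were chosen, so these values describe it and do not test it. Dnmt3a was higher in ELA than in ES, and its CHQ minus AZA difference of -0.20 was within 2 spot SD.

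The upstream 250 bases of these 2 genes differ in CpG content, and they are shown because CpG is the substrate of the enzymes. Both are from RefSeq on GRCm38.p6, plus strand, and end at the base before the annotated start of transcription; CpG is in capitals. RefSeq gives Dnmt3b 1 start and Dnmt3l 3 starts, of which the most upstream is printed. Which of the 3 was in use in these cells was not tested.
Dnmt3b, chr2:153649199-153649448: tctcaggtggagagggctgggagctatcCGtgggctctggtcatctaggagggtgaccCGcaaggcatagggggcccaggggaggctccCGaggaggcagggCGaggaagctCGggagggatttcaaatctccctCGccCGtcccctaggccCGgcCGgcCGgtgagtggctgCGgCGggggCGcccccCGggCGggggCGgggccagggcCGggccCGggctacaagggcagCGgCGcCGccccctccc
Dnmt3l, chr10:78042037-78042286: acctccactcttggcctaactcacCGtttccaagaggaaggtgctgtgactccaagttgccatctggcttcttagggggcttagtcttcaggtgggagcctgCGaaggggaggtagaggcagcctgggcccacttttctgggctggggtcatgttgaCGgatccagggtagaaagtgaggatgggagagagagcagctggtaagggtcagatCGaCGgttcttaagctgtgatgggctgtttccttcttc

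The Dnmt3b window held 21 CpG, more than 83.7% of all promoter windows, and 75.2% of its bases were G or C. The Dnmt3l windows held 5, 4 and 3 CpG and were 55.6% (the one printed), 64% and 61.6% G or C. Over 32851 promoter windows of this length the median was 6 CpG, with quartiles of 2 and 16. The 3 windows of Dnmt3a held 38, 40 and 15, those of Dnmt1 26, 7 and 2, those of Uhrf1 10 and 30, that of Uhrf2 23 and that of Mbd4 22. In all, 7 member genes had 14 windows. Motifs of 3 kinds were searched on both strands of these windows. The STAT-type motif TTCNNNGAA occurred in 1 member window, the middle one of Dnmt3l, and in 7.02% of all windows. The E2F-type motifs TTTCGCGC and TTTGGCGC occurred in 1 window each of Dnmt1 and Uhrf1, and in 0.654% of all windows. The GC-box core GGGCGG occurred in 10 of the 14 member windows and in 32.7% of all windows. The member windows are not independent: the first and second of Dnmt3a overlap, so that a run in the shared stretch counts in both. Each kind was counted on its own, and overlaps between kinds were allowed. A match is a run of letters and is not a measured site.

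Dnmt1, the maintenance enzyme and a direct target of 5-azacytidine, showed little difference at its single probe (position 4984, chromosome 9, 20711973 to 20712341, minus strand). Its level was 11.86 in ES, 11.93 in ELA, 11.83 under AZA and 11.81 under CHQ. The whole range was 0.12, and every neighbouring pair lay within 2 spot SD. ELA minus ES (0.07) turned negative with 75th percentile scaling (-0.00) and with E1A spike-in scaling (-0.58), where the median of all probes was -0.59.

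Uhrf1, which brings Dnmt1 to newly replicated DNA, differed little between ES and ELA in the main values. It was lower in both treated aggregates at its upstream probe, with smaller differences at the downstream one. At position 985 its level was 10.28 in ES, 10.14 in ELA, 8.46 under AZA and 8.32 under CHQ. At position 3430 it was 15.50, 15.50, 15.11 and 14.79. With E1A spike-in scaling ELA minus ES was -0.70 and -0.69, where the median of all probes was -0.59. At both probes the treated arrays lay below ES and ELA. AZA minus ELA was -1.68 at the upstream probe and -0.39 at the downstream one, and CHQ minus ELA was -1.82 and -0.71, so that only the upstream probe was called, and the downstream AZA difference was within 2 spot SD. The 2 probes thus differed from each other by 1.29 and 1.11, against a spot SD of 0.21 and 0.22 for one such difference. At the downstream probe AZA minus ELA went to -0.78 with 75th percentile scaling and -0.71 with E1A spike-in scaling, and CHQ minus ELA went to -1.26 with 75th percentile scaling and to -1.28 with E1A spike-in scaling, past the threshold. CHQ minus AZA, within the slide, was -0.14 and -0.32.

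Uhrf2, the paralogue of Uhrf1, had its highest level in ELA at both probes. At position 696 (chromosome 19, 30130768 to 30130827) its level was 10.43 in ES, 10.99 in ELA, 10.11 under AZA and 9.63 under CHQ. At position 3281 (30167958 to 30168017) it was 13.22, 13.83, 13.05 and 12.74. ELA minus ES was 0.56 and 0.61, below the threshold and above 2 spot SD, and it was -0.03 and -0.09 with E1A spike-in scaling. AZA minus ELA was -0.87 and -0.78, not called, and CHQ minus ELA was -1.36 and -1.09, called at both probes. CHQ minus AZA was -0.49 and -0.31.

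**Figure D2:**
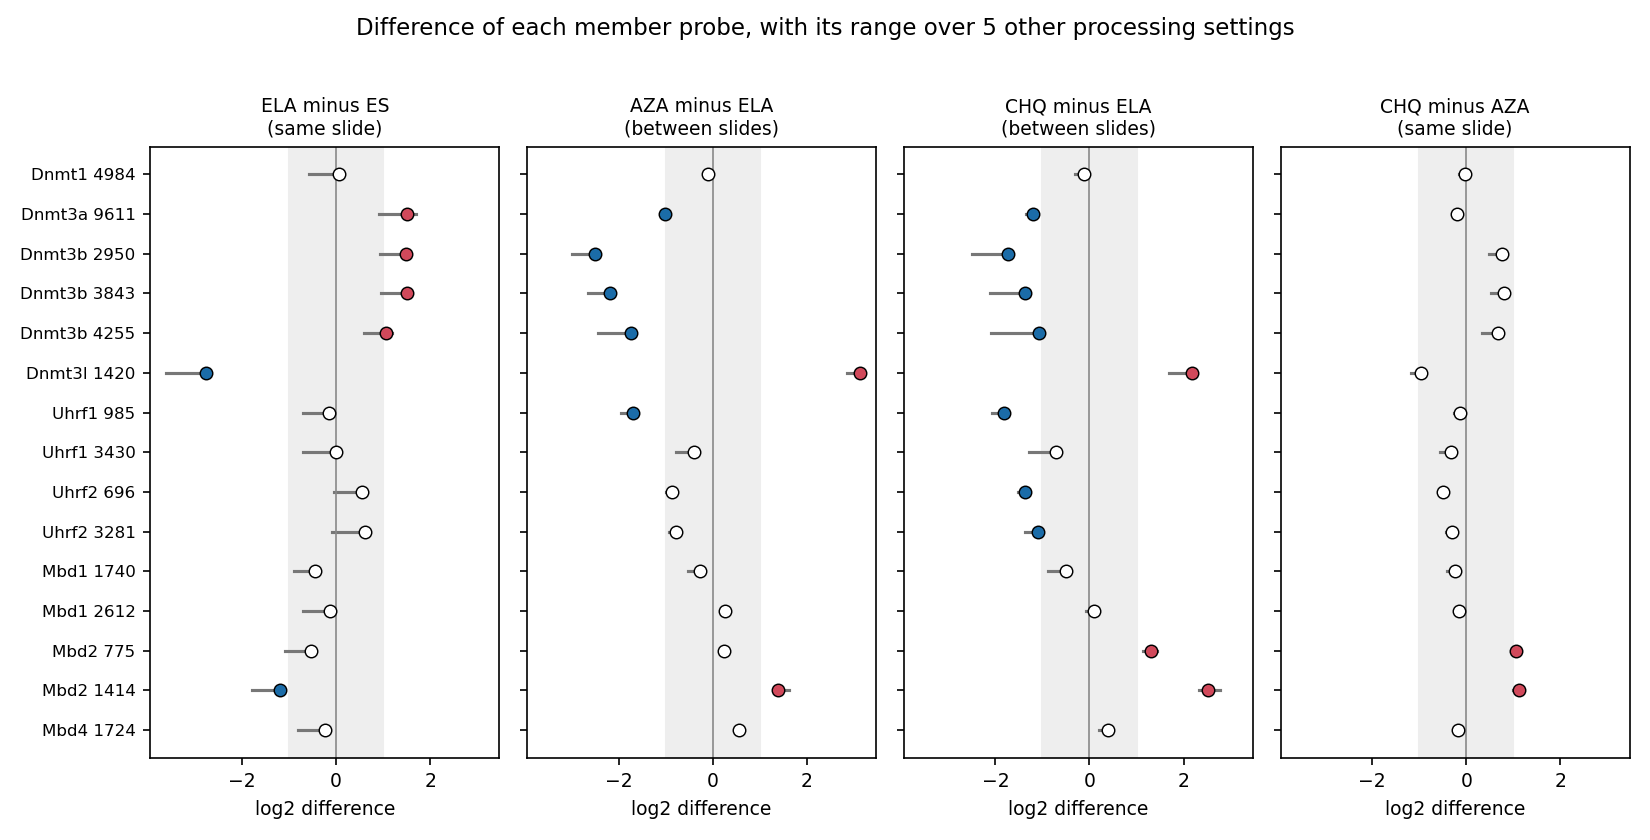
Log2 difference (horizontal axis) of each member probe, named by gene and start position, in the 4 comparisons; circles are the main values, red where called higher, blue where called lower and white where not called, grey lines run over the values under 5 other ways of processing, and the grey band marks differences below 1. Dnmt3l lies opposite to Dnmt3a and Dnmt3b in the first 3 panels, and the Mbd2 probes are the only circles called in the last.

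Among the readers, Mbd2, which recruits the NuRD deacetylase and remodelling complex to methylated DNA, had the largest differences. At position 775 (chromosome 18, 70740406 to 70740465, mm9) its level was 9.81 in ES, 9.28 in ELA, 9.52 under AZA and 10.58 under CHQ. At position 1414 (70785350 to 70785409) it was 10.69, 9.50, 10.89 and 12.02. ELA was lowest and CHQ highest at both probes, although at position 775 ELA and AZA were within 2 spot SD. CHQ minus ES was 0.77 and 1.33, and with E1A spike-in scaling 0.06 and 0.52, the former within 2 spot SD. CHQ stood 2.46-fold and 5.74-fold above ELA, and 2.09-fold and 2.18-fold above AZA on the same slide. The latter differences, 1.06 and 1.12, were the only ones called among the members between the treated arrays, and they were 0.95 and 0.99 with E1A spike-in scaling. The probes parted for AZA minus ELA, at 0.24 and 1.40, and for ELA minus ES, at -0.53 and -1.19, where only the downstream probe was called. With E1A spike-in scaling ELA minus ES was -1.07 and -1.79, and both were called.

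Mbd1, a repressor that binds methylated CpG, and Mbd4, a glycosylase that removes thymine mispaired after deamination of methylated cytosine, were not called in any comparison. Mbd1 at position 1740 (chromosome 18, 74437020 to 74437079) was 8.39 in ES, 7.95 in ELA, 7.69 under AZA and 7.46 under CHQ. At position 2612 (74442279 to 74442338) it was 10.58, 10.46, 10.71 and 10.55. The probes had opposite signs for AZA minus ELA, at -0.26 and 0.25, each close to the spot SD of 0.21, and for CHQ minus ELA, at -0.49 and 0.09. With E1A spike-in scaling AZA minus ELA was -0.52 and 0.17, the former past 2 spot SD, and CHQ minus ELA was -0.87 and -0.07. At position 1740 these differences were -0.46 and -0.88 with 75th percentile scaling. Mbd4 (position 1724, chromosome 6, 115792515 to 115792574, minus strand) was 10.40 in ES, 10.16 in ELA, 10.72 under AZA and 10.55 under CHQ, and its AZA minus ELA difference of 0.56 was the only one of its 4 differences past 2 spot SD.

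Of the 25 calls above, 4 of the 6 for ELA minus ES rested on the scale: Dnmt3a and the 3 Dnmt3b probes were at 0.91, 0.94, 0.95 and 0.60 with E1A spike-in scaling. On that scale the median of all probes was -0.59 and the share of all calls that were higher was 6.66%, against 41.9% in the main values. Relative to that median the 4 differences were 1.5, 1.53, 1.55 and 1.19. For CHQ minus ELA the share of higher calls was 52.7% in the main values, 40.7% with 75th percentile scaling and 31.7% with E1A spike-in scaling, around medians of -0.28 and -0.41. For CHQ minus AZA it was 51.9% and, with E1A spike-in scaling, 40.4%, around a median of -0.18. None of the 25 called differences changed sign under the 5 other ways of processing. Since a call needs a difference of at least 1, a change of sign would have needed a shift larger than that.

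Markers of the state of the cells also differed between the arrays, and the part of cell state in the results was not tested. All 6 ground state markers were well above background on all arrays, and their summed signal (log2) was 17.09 in ES, 13.97 in ELA, 17.62 under AZA and 16.19 under CHQ. Each of the 6 was higher under CHQ than in ELA, but Nanog hardly so: it was 15.05, 12.53, 15.41 and 12.55 on these arrays. The 4 primed epiblast markers summed to 16.06, 17.14, 16.53 and 16.75, with medians of 13.10, 14.88, 12.79 and 14.42. From ELA to AZA the brightest of them, Otx2, went from 15.87 to 16.20, whereas Fgf5 went from 14.48 to 11.94, Sox3 from 14.56 to 11.11 and Pou3f1 from 15.21 to 13.65. The trophoblast markers summed to 12.85, 10.59, 12.27 and 13.44, a sum set largely by their brightest, Tfap2c, at 12.65, 9.79, 11.91 and 13.24. Of the 5 markers, 4 were higher with CHQ than in ELA. The exception was Cdx2, at 6.86, 6.39, 6.15 and 6.18, which was well above background in ES only. The mesoderm markers summed to 13.03, 13.23, 12.36 and 12.27, the fibroblast markers to 12.38, 13.75, 12.96 and 11.68. The neural markers summed to 12.79, 13.59, 11.98 and 12.37 and the germ cell markers to 13.01, 11.56, 11.61 and 11.46. The mesoderm, fibroblast and neural sums were set largely by their brightest, Kdr, Thy1 and Nes. Of the 4 mesoderm markers, 2 were higher than in ELA with AZA and 2 with CHQ. Mesp1 was 5.93 in ELA, not well above background, 7.75 under AZA and 7.89 under CHQ. Of the 3 germ cell markers, 1 was higher than in ELA with AZA and 2 with CHQ. Dazl was lowest in ELA, and was 7.75 in ES, 10.53 under AZA and 9.30 under CHQ. The 2 general pluripotency markers summed to 15.39, 14.86, 14.92 and 14.50. They parted in the treated arrays: Pou5f1 was 14.96, 14.47, 14.06 and 13.57, and Sox2 was 13.44, 12.78, 13.77 and 13.42. Of 5 endoderm markers, 2 were well above background in ES and ELA and 5 with AZA and with CHQ, with sums of 9.07, 9.79, 9.87 and 11.18. Well above background were 4, 2, 3 and 4 of 5 trophoblast markers, 2, 2, 3 and 4 of 4 mesoderm markers, 3, 4, 4 and 4 of 5 fibroblast markers and 3, 3, 3 and 2 of 3 neural markers, and the 3 germ cell markers found by name were so on all arrays. Local background also moved with the slide, at a median of 59 and 77 units on the first and 14 and 13 on the second.

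The genes that remove or read methylation were then counted from lists of related genes, each taken at its brightest probe. Of all genes so taken, 4.46% were called higher and 5.6% lower in ELA than in ES, 14.3% and 11.4% with AZA, 14.8% and 11.9% with CHQ, and 5.56% and 4.83% in CHQ minus AZA. The median of all genes in these 4 comparisons, in the same order, was -0.02, -0.07, -0.09 and -0.02. Of 8 genes for oxidation and repair of methylcytosine, 0 were higher and 2 lower in ELA, 3 higher and 1 lower with AZA, 3 higher and 2 lower with CHQ, and 0 in either direction between AZA and CHQ. The 3 higher with AZA became 2 with 75th percentile scaling, without Tet1, beside 13.9% of all probes. They became 1 with E1A spike-in scaling, where Tet2 alone was called higher, beside 12.4%. The list medians were -0.07, 0.29, 0.29 and -0.02 in that order, the first -0.79 with E1A spike-in scaling and that for AZA 0.15 with the mean over each gene's probes. Tet2, a dioxygenase that oxidises methylcytosine, was 12.07 in ES, 9.05 in ELA, 11.68 under AZA and 11.55 under CHQ, lower in ELA than in ES and higher with both inhibitors than in ELA, with the same signs at its other 2 probes. Tet1, an enzyme of the same family, was 14.58, 13.28, 14.33 and 14.91. Its ELA minus ES difference was -1.29 to -1.38 over 3 probes, whereas AZA minus ELA was 1.05 at the brightest probe and 0.23 and 0.04 at the others. CHQ minus ELA was 1.62 at the brightest probe of Tet1 and 0.74 and 0.85 at the others, short of the threshold. Tet3 was 8.80, 8.93, 9.15 and 8.73 and was not called. Tdg, the glycosylase that excises oxidised methylcytosine, was 10.62, 11.16, 9.74 and 9.82, and its differences from ELA were -1.42 under AZA and -1.34 under CHQ, with the same sign at its other 2 probes. For Xrcc1, a scaffold of base excision repair, AZA minus ELA was 1.23, a call lost with E1A spike-in scaling, and CHQ minus ELA 1.69. Apex1, an endonuclease of the same repair, had a CHQ minus ELA difference of -1.08.

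Of 10 regulators and partners of de novo methylation, 0 were higher and 3 lower in ELA than in ES, 2 higher and 0 lower with AZA, 3 higher and 1 lower with CHQ, and 0 higher and 3 lower in CHQ minus AZA. The 3 higher with CHQ were Nsd1, Prdm14 and Zfp57, and they became 1 (Zfp57) with 75th percentile scaling and 2 under each of the 4 other ways of processing. Prdm14, known as a repressor of the de novo methyltransferase genes in ES cells, was 10.57 in ES, 6.69 in ELA, 10.74 under AZA and 8.36 under CHQ. In ELA it was not well above background, so that ES, AZA and CHQ were at least 14.1-fold, 15.9-fold and 3.06-fold higher, taking the lowest signal well above background on that array as its level. Its CHQ minus ELA call was made in the main values and with E1A spike-in scaling, and not under the 4 other ways of processing. Zfp57, which holds methylation at imprinted regions, was 10.92, 8.17, 12.13 and 10.47 at its brightest probe, and its other probe was 9.93, 9.40, 10.37 and 9.14. Dppa3, a protein that shields DNA from maintenance methylation, was 12.37, 10.43, 9.98 and 7.0, lowest with CHQ. Nsd1, a histone H3K36 methyltransferase, was 1.17 higher with CHQ than in ELA at its brightest probe, a call lost with both other scalings, and -0.07 at its other probe. This list had a median of -0.35 between ELA and ES, and -1.03 with E1A spike-in scaling. On that scale 6 of its genes were lower, beside 18.8% of all probes. Against ELA its median was 0.01 under AZA and 0.18 under CHQ, and both were negative, at -0.20 and -0.03 with 75th percentile scaling and -0.23 and -0.16 with E1A spike-in scaling. For CHQ minus AZA it was -0.03, and -0.27 with E1A spike-in scaling. With CHQ, 3 genes of this list were lower than in ELA under either scaling, beside 19.8% of all probes with 75th percentile and 23.1% with E1A spike-in scaling.

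Of 6 partners of maintenance methylation, 0 were called in ELA minus ES and in CHQ minus AZA, 1 was lower with AZA and 2 were lower with CHQ. Their medians over the 4 comparisons were 0.07, -0.17, -0.31 and -0.08. They were 0.00, -0.61, -0.98 and -0.19 with 75th percentile scaling and -0.63, -0.59, -1.02 and -0.25 with E1A spike-in scaling. On the latter scale 4 were lower with CHQ, beside 23.1% of all probes. Cdca7l was 9.37 in ES, 9.81 in ELA, 8.49 under AZA and 8.46 under CHQ. Cdca7, its paralogue and a partner of the remodeller Hells, had a CHQ minus ELA difference of -1.27. Hells itself, 13.05, 12.34, 12.94 and 12.81, and the replication clamp Pcna, 16.99, 16.78, 16.51 and 16.56, were not called in the main values. With E1A spike-in scaling Hells was called lower in ELA than in ES, and Pcna lower with CHQ than in ELA. Of 13 replication and cell cycle genes, 0 were called in any of the 4 comparisons, with medians of -0.03, 0.03, -0.00 and -0.17, and the proliferation marker Mki67 was 14.80, 15.27, 15.05 and 15.15. The near-zero medians of this list held for quantile normalised values: they were -0.12, -0.25, -0.56 and -0.35 with 75th percentile scaling and -0.75, -0.26, -0.59 and -0.45 with E1A spike-in scaling. On these 2 scales 1 and 2 of the genes were lower with CHQ than in ELA, beside 19.8% and 23.1% of all probes. The 7 reference transcripts had 0 calls, with medians of -0.07, -0.03, -0.04 and -0.01 in the 4 comparisons. They too were lower on the other scales, with AZA minus ELA medians of -0.44 and -0.54 and CHQ minus ELA medians of -0.29 and -0.43. Actb, Gapdh and Ppia were called lower with CHQ on both scales, and Actb was also called lower with AZA on both.

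Of 7 other methyl-CpG and MBD-domain proteins, 0 were called in ELA minus ES, 2 were higher with AZA, 2 were higher with CHQ, 1 was higher in CHQ minus AZA and 0 were lower in any comparison. With E1A spike-in scaling 1 was higher with CHQ, and 1 was lower in ELA minus ES and 1 with AZA. Their medians were 0.58, -0.25, 0.75 and 0.28, the first 0.00 with E1A spike-in scaling. With the mean over a gene's probes in place of its brightest probe, the ELA minus ES median was 0.36 and that of CHQ minus ELA 0.33. Zbtb4, a zinc finger protein that binds methylated CpG, was 1.34 and 1.54 above ELA with AZA and CHQ at its brightest probe and -0.29 and -0.30 at its other detected probe. Zbtb38 was 1.45 above ELA with AZA at its brightest probe and 0.79 at its other, short of the threshold. Mbd5 was 7.82 in ES, 8.55 in ELA, 7.70 under AZA and 9.58 under CHQ, 1.88 above AZA within the slide. Mbd3, the NuRD subunit related to Mbd2, was 15.40, 15.59, 15.28 and 15.49 at its brightest probe and 12.51, 12.58, 10.88 and 11.30 at the other. Of 10 NuRD subunits, 1 was lower with AZA and 0 were called in the other 3 comparisons. This was Mta1, with an AZA minus ELA difference of -1.57. With 75th percentile scaling 2 were lower with AZA, Mta1 and Chd4, and 1 was lower with CHQ, beside 15.7% and 19.8% of all probes. The NuRD medians over the 4 comparisons were -0.03, -0.56, -0.44 and 0.13. With E1A spike-in scaling they were -0.65, -0.74, -0.82 and -0.13. On that scale 1 subunit was lower in ELA than in ES, 2 with AZA and 3 with CHQ, near the 18.8%, 15.9% and 23.1% of all probes.

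**Figure D3:**
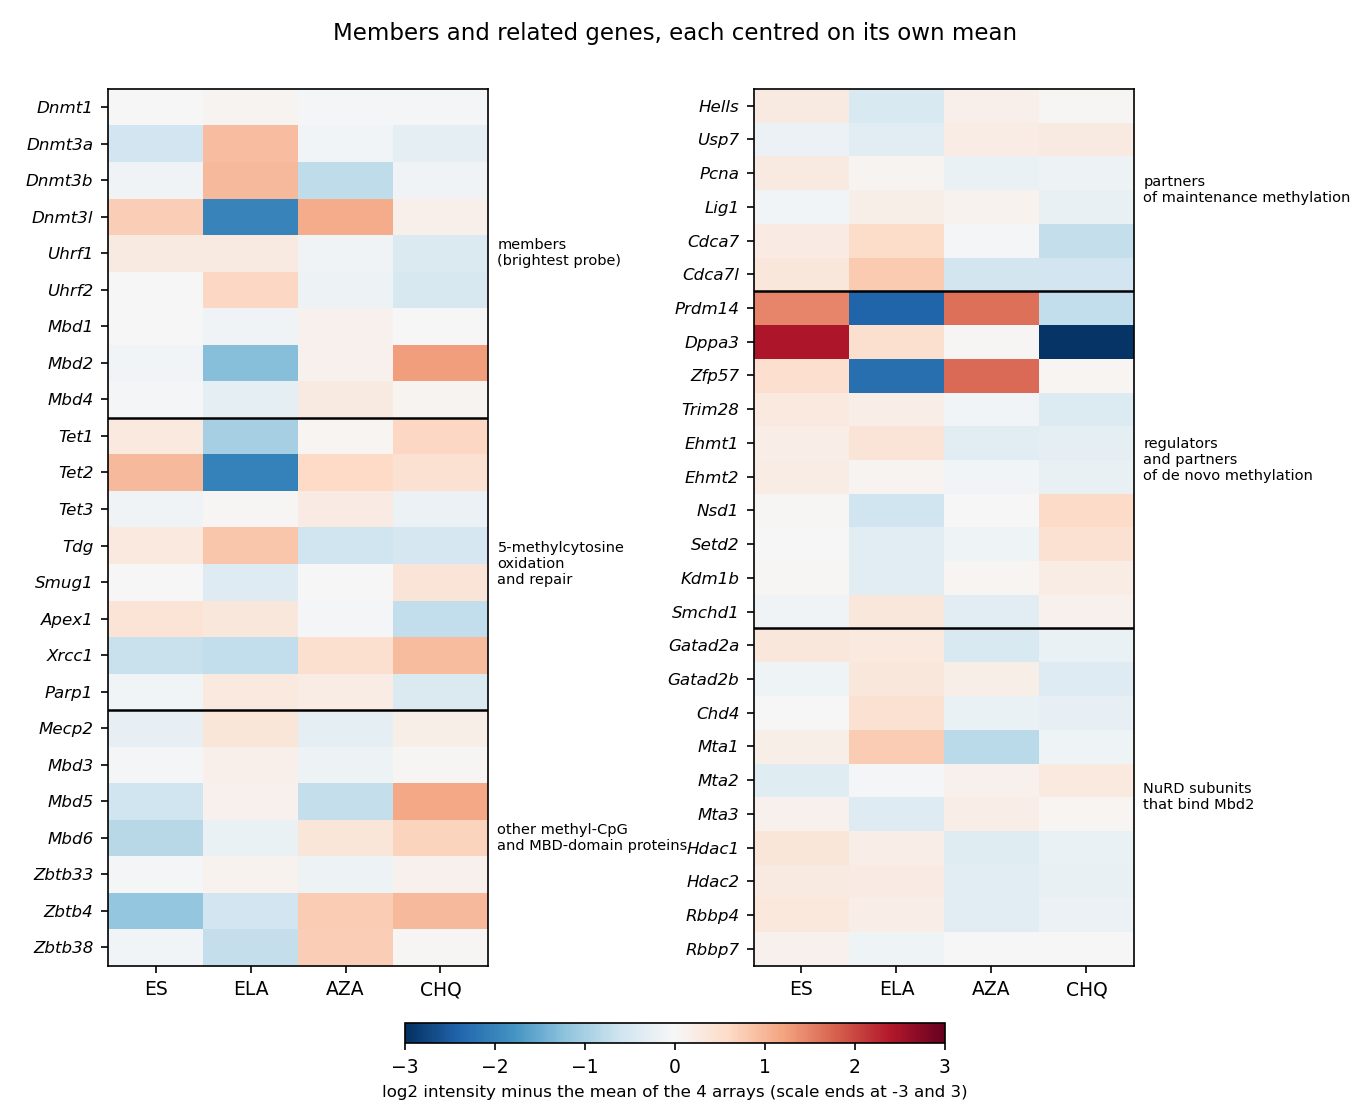
Level of each gene at its brightest probe on the 4 arrays, as log2 intensity minus the mean of the gene's 4 arrays (colour, red above and blue below its mean), for the members and 5 lists of related genes. Dnmt3l, Tet2, Prdm14 and Zfp57 are blue in the ELA column, where Dnmt3a and Dnmt3b are red, and Mbd2 and Mbd5 are reddest in the CHQ column.

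For each member the 3 genes with the nearest profile were taken from 12959 other genes that were well above background on all 4 arrays, with the distance measured between levels centred on the mean of the 4 arrays. Nearest to Dnmt3l were Gbp4, Liph and Tle6, at distances of 0.22, 0.27 and 0.32 (log2). Gbp4 was 9.88 in ES, 7.02 in ELA, 9.95 under AZA and 9.17 under CHQ, the same order as Dnmt3l. Nearest to Dnmt3b at position 4255 were Arnt2, Arhgap31 and Septin6, at 0.07, 0.09 and 0.14. Nearest to Dnmt3a were Usp51, Lag3 and Tesk1, at 0.12, 0.13 and 0.13. Nearest to Mbd2 at position 1414 were Tex11, Ecm1 and Fbxw9, at 0.16, 0.22 and 0.23. The other members, each taken at 1 probe, had neighbours within 0.08. These were Zfp46, Bag1 and Rpl37 for Dnmt1, and Cngb1, Agfg2 and Mapk6 for Uhrf1 at position 3430. They were Pip5kl1, Kcnh6 and Slc45a3 for Uhrf2 at position 3281, and Ssu2, Uqcrc1 and Hddc2 for Mbd1 at position 2612. For Mbd4 they were Tmem81, Rbak and Kazald1. With 4 arrays as points, a near profile describes these arrays and nothing more.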

How the data were processed

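Cy3-labelled RNA was read on 4 Agilent SurePrint G3 mouse arrays. The deposited scanner files hold spot intensity per the file headers (Feature Extraction 10.7.3.1; the submitters' processing notes name version 9.1), with control, outlier and background flags. The authors' value table holds log2 values made, per the labels, with limma; its scale matches normexp with offset 0 (r of 0.999 to 1.00 across probes; array medians 6.23, 6.21, 6.24 and 6.23), and it served as an alternative. Here the mean signal was background corrected (limma 3.58.1, R 4.3.3, normexp, offset 50) and quantile normalised, control and outlier spots were left out, and repeat spots were averaged, leaving 55122 probes. Saturated spots numbered 0. Names followed RefSeq (GRCm38.p6) where an accession matched (26582 of 55681 probes). With 1 array per group no test was run, and the number of arrays limits precision. The normalisation was tested on simulated data, and the outcome of that test is not given here. Alternatives were no background correction, offset 0, 75th percentile and E1A spike-in scaling (7 probes), the authors' table, 2 filters, a threshold of 1.5 and, for list medians, the mean over a gene's probes. Named genes were every member, list genes past the size rule and 8 genes always given (Tet1, Tet2, Tet3, Hells, Prdm14, Dppa3, Pcna, Mki67). The members and lists were chosen with earlier results of these data known.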

Additional observations from a re-analysis of the deposited data

How the results depend on the processing

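Of 64 counts of called member probes under the alternatives, 55 stayed within 1.5 times the main count. With E1A spike-in scaling the count of member probes higher in ELA than in ES went from 4 to 0, the count higher in CHQ than in AZA from 2 to 0, and the count lower in CHQ than in AZA from 0 to 1; with 75th percentile scaling the last count was also 1, and the probe was Dnmt3l. With a threshold of 1.5, ELA minus ES had 2 probes higher and 1 lower, AZA minus ELA had 1 higher, CHQ minus ELA had 2 lower, and CHQ minus AZA had 0 higher; fewer probes pass a larger threshold by construction. The cause of the change with E1A scaling was not tested. Of 450 differences of single probes, 348 moved by less than the SD of repeat spots and 16 changed sign. None of these 16 was a called difference, which by definition was at least 1 in size. Of 168 list medians, 140 moved by less and 15 changed sign. The alternatives for AZA and CHQ against ES, for the member medians and for the counts over lists were chosen after seeing the data. No paired analysis was possible because each group was 1 array. Leaving out a replicate could not be done for the same reason. All 15 probes were well above background on the 4 arrays, yet dim ones also moved with the processing. Mbd1 at position 1740 read 258 units in ELA over a local background of 92. Its CHQ minus ELA difference was -0.49 in the main values and -0.87 in the authors' table. For Uhrf1 at position 985, AZA minus ELA was -1.68 and -1.94 in the same order.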
